A study of Rattus norvegicus with 50 samples.

Results

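The step in gene expression from postnatal day 8 to postnatal day 14 was examined in the prefrontal cortex of Wistar rats. Its members are the libraries of these ages, 20 of the 50 in the series, chosen by the age and genotype in the labels. They form 4 groups of 5: wild-type (WT) rats at day 8, SERT knock-out (KO) rats at day 8, wild-type rats at day 14 and knock-out rats at day 14. The other 30 libraries, from days 21, 35 and 70 of the same genotypes, were used to follow the genes of this step to later ages. SERT is the serotonin transporter, which clears released serotonin by carrying it back into cells. The sources used here do not give how the transporter was inactivated, the sex of the rats or any other allele or treatment. Nothing in the labels ties each library to a rat of its own, so p-values measure only the spread between these libraries, which may be technical.

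As background, the rat cortex of this period has nearly all of its projection neurons in place and is building its circuits. Axons and dendrites branch, synapses form in large numbers, astrocytes multiply and mature, and the first oligodendrocytes begin to wrap axons with myelin. Serotonin reaches the cortex early through fibres from the raphe nuclei, before the local circuits are complete, and the transporter limits how long it acts. The comparison of the ages asks which genes changed over this window, and the comparison of the genotypes asks whether the change was the same size without the transporter. Expression came from RNA sequencing after removal of ribosomal RNA, in FPKM, a read density scaled to transcript length and to the reads of the library. The tables name genes by Ensembl identifier alone, and no symbol could be matched. Pathway lists, cell type markers of the cortex and the transporter gene itself were not analysed here. In bulk tissue, fewer cells of a type and less RNA per cell cannot be told apart.

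The 20 libraries had between 18650 and 20219 rows above 0, and total FPKM between 431410 and 1649378, of which the 50 most abundant rows held 48.8% to 80.3%. The absolute read depth of each library is unknown. Relative depth, read from the spacing of low values, ran from 0.726 to 1.42 of the median library, with medians of 0.992 at day 8 and 1.03 at day 14. The library KO8 30-5 (knock-out, day 8, title number 30-5) and the library WT14 21-3 stood apart from their groups. On the third principal component of all 50 libraries, which held 9.74% of the variance, they lay at 62.1 and 57.3, beside 1 wild-type library of day 21 and 1 knock-out library of day 35. Each had genes more than 2-fold below the group median, 962 in KO8 30-5 and 804 in WT14 21-3, and the 579 they shared were 60.2% of the first list and 72% of the second. These libraries have opposite ages and opposite genotypes. The main counts are therefore also given without them. Library WT14 20-2 differed from its group in another way. Its mean correlation with the group, 0.916, was the lowest of the 20 libraries. It lay at -60 on the second principal component, which held 16.3% of the variance, and had 598 genes more than 2-fold below the group median.

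Of the tested genes 44.4% differed between the ages, about equally in each direction and mostly by small amounts. Of the 14779 genes whose mean over all 50 libraries reached 0.5 FPKM, 3325 rose (22.5% of those tested) and 3231 fell (21.9%) from day 8 to day 14. The test was limma on log2(rescaled FPKM + 0.5), with genotype as a block and a Benjamini-Hochberg adjusted p under 0.05 as the threshold. The median log2 change was 0.42 among the rising genes and -0.39 among the falling ones, with quartiles of 0.30 and 0.64 and of -0.28 and -0.58. Of the rising genes 2331 changed less than 1.5-fold, and of the falling genes 2428 did. Over all genes tested the median log2 change was -0.015, the median size of the change was 0.22 and the median SE was 0.091. Without KO8 30-5 and WT14 21-3 the counts were 3772 rising and 3637 falling. With total FPKM as a further covariate they were 3277 and 3212. The balance of directions moved with the scaling: on the values as deposited, which shifted the median log2 change of all genes to -0.046, 2865 rose and 3556 fell, so that 44.6% of the called genes rose in place of 50.7%.

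Age separated the libraries completely for 1701 genes. In 980 of them (6.63% of those tested) all 10 libraries of day 14 lay above all 10 of day 8, and in 721 (4.88%) all 10 lay below. All 1701 also passed the test, and the other 4855 called genes overlapped between the ages in at least 1 library. Without KO8 30-5 and WT14 21-3, which leaves 9 libraries against 9 and so makes separation easier, 1360 genes were separate upward and 1058 downward. As a share of each gene's sum of squares over the 20 libraries, age had a median of 20.6% and genotype of 1.49%. A factor with no effect also takes up some share by chance, which was not subtracted, so 1.49% is not a measured effect of genotype. Age held more than 50% in 3665 genes (24.8%), and genotype did in 3.

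A minority of genes changed by more than 2-fold. There were 299 such genes rising (2.02% of those tested) and 199 falling (1.35%), and 255 and 123 of these were separate between the ages. Without KO8 30-5 and WT14 21-3 the counts were 303 and 200. A log2 change of more than 2 was fitted for 16 rising and 24 falling genes. Both numbers depended on the constant added before the logarithm: 424 rose and 301 fell by more than 2-fold with 0.1, and 228 and 131 did with 1. With a filter at a mean of 2 FPKM 278 rose and 123 fell, from fewer genes tested.

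**Figure D1:**
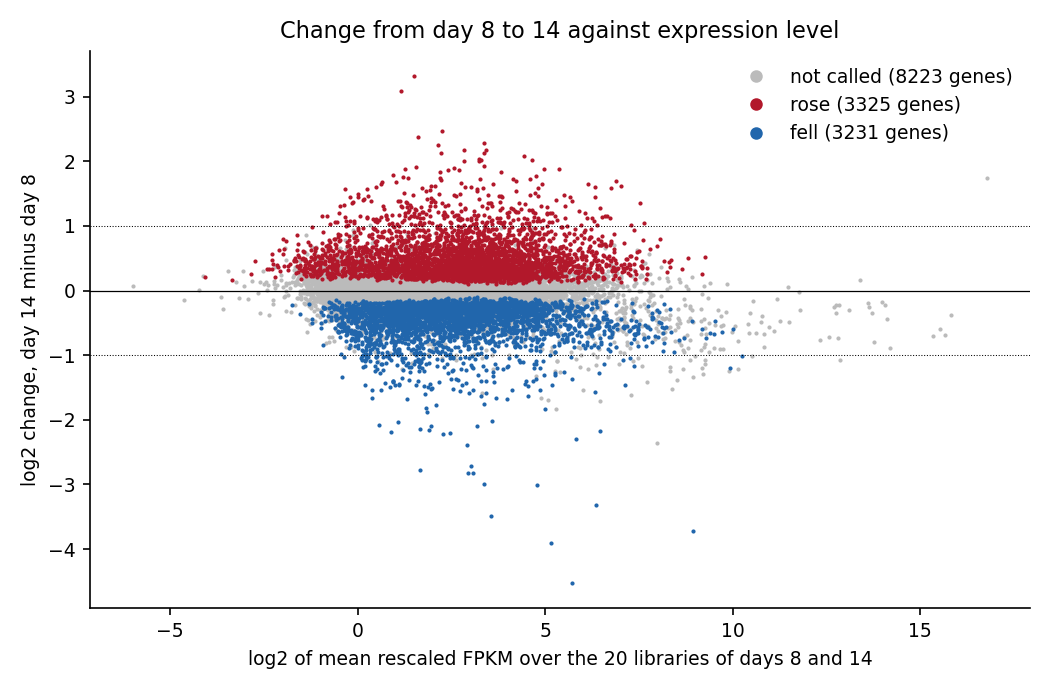
The log2 change from day 8 to day 14 of each of the 14779 genes tested (vertical axis) against the log2 of its mean rescaled FPKM over the 20 libraries (horizontal axis), with rising genes in red, falling genes in blue, genes that did not pass in grey and dotted lines at a 2-fold change. Most called genes lie within the dotted lines, and many of the most abundant genes on the right scatter widely without passing.

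The share of genes that changed was also read by abundance over the 20 libraries. Among the lowest genes the filter set the balance, because it takes in days 21 to 70 and so favours genes that stayed up after day 14. From 0.5 to 1 FPKM 15.8% of 1290 genes rose and 13.6% fell with the filter, and 12.5% of 1546 rose and 18% fell with none. Among the 3165 genes between 1 and 3 FPKM 17.7% rose and 24.2% fell. In the 3333 genes between 10 and 30 FPKM 27.5% rose and 22.1% fell, and in the 1152 between 30 and 100 FPKM 28.6% and 21.3% did. Of the 455 genes at 100 FPKM or more, 18% rose and 20.4% fell. In that highest class the median SE was 0.173 on the log2 scale against 0.081 to 0.111 in the others, while the median size of the change, 0.47, was above that of all genes. A change of a given size was thus harder to call among the most abundant genes.

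The largest rise that met the rule for naming genes was that of ENSRNOG00000032450. At day 8 its wild-type libraries stood at 0.14, 0.128, 0.173, 0.0707 and 0.104 FPKM and its knock-out libraries at 0.117, 0.157, 0.0501, 0.065 and 0.0315. At day 14 the wild-type libraries stood at 4.67, 4.80, 5.66, 5.48 and 8.33 FPKM and the knock-out libraries at 4.08, 5.82, 5.17, 5.83 and 6.14. The gene was close to silent in every library of day 8 and above 4 FPKM in every library of day 14, with no overlap. The wild-type mean went from 0.123 ± 0.0385 to 5.79 ± 1.48 FPKM and the knock-out mean from 0.0841 ± 0.0516 to 5.41 ± 0.822 (SD, n = 5 each), and the ratio of the means of the 10 libraries at each age was 54. The fitted log2 change was 3.32 ± 0.09 (SE; limma adjusted p = 1.41e-15), which the added 0.5 FPKM holds well below the ratio of means. Later levels were higher still, with wild-type means of 8.71, 10.5 and 8.33 FPKM and knock-out means of 7.86, 9.60 and 8.20 at days 21, 35 and 70.

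ENSRNOG00000037385 had nearly the same course at a lower level. Its day 8 values were 0.0517, 0.0828, 0.0897, 0 and 0.09 FPKM in wild-type and 0.152, 0.0609, 0.0648, 0 and 0.0408 in knock-out libraries. Its day 14 values were 3.54, 3.88, 4.37, 3.82 and 6.80 FPKM in wild-type and 3.20, 4.52, 3.51, 4.45 and 5.52 in knock-out libraries. Each day 8 group had 1 library listed at 0, and the lowest library of day 14 stood at 3.20 FPKM. The ratio of the means of the ages was 69, and the fitted log2 change was 3.08 ± 0.10 (SE; limma adjusted p = 4.09e-14). Wild-type means of 6.96, 7.58 and 5.59 FPKM and knock-out means of 6.35, 6.94 and 6.96 followed at days 21, 35 and 70. In both rising genes WT14 21-3 was the highest library of its group.

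In the opposite direction ENSRNOG00000012031 went from a well expressed gene to a weak one. At day 8 it stood at 18.6, 19.1, 17.5, 22.2 and 19.0 FPKM in wild-type and at 17.7, 18.0, 21.4, 16.8 and 16.3 in knock-out libraries. At day 14 it stood at 1.23, 2.68, 2.48, 2.00 and 1.46 FPKM in wild-type and at 2.38, 2.51, 3.51, 1.22 and 0.782 in knock-out libraries. The lowest library of day 8 was far above the highest of day 14. The wild-type mean went from 19.3 ± 1.74 to 1.97 ± 0.625 FPKM and the knock-out mean from 18.0 ± 1.99 to 2.08 ± 1.09 (SD, n = 5 each), and the mean of all 10 libraries was 9.21-fold lower at day 14. The fitted log2 change was -2.99 ± 0.16 (SE; limma adjusted p = 3.47e-11). By day 21 the means were 0.281 FPKM in wild-type and 0.206 in knock-out libraries, and at days 35 and 70 they lay between 0.181 and 0.324.

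ENSRNOG00000032104, an abundant gene at day 8, also fell. Its day 8 values were 89.6, 84.1, 82.6, 94.0 and 85.1 FPKM in wild-type and 88.2, 98.7, 99.9, 86.4 and 138 in knock-out libraries, the last being KO8 30-5. Its day 14 values were 15.9, 16.2, 20.1, 19.3 and 20.7 FPKM in wild-type and 24.0, 21.9, 23.0, 15.4 and 12.6 in knock-out libraries. The lowest knock-out values, 15.4 and 12.6, were those of KO14 24-1 and KO14 24-2, whose titles share their first number. These libraries were also the lowest knock-out ones of day 14 for ENSRNOG00000012031. The ages did not overlap, and the SD at day 8 was 20.9 FPKM in knock-out and 4.66 in wild-type libraries. Without KO8 30-5 the knock-out SD was 6.99 FPKM (n = 4). The SDs at day 14 were 5.05 and 2.25 FPKM. The mean of all 10 libraries was 5.01-fold lower at day 14, with a fitted log2 change of -2.30 ± 0.11 (SE; limma adjusted p = 4.78e-12). Between 5.47 and 8.15 FPKM remained in the group means of days 21 to 70, where ENSRNOG00000012031 had dropped below 1 FPKM.

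**Figure D2:**
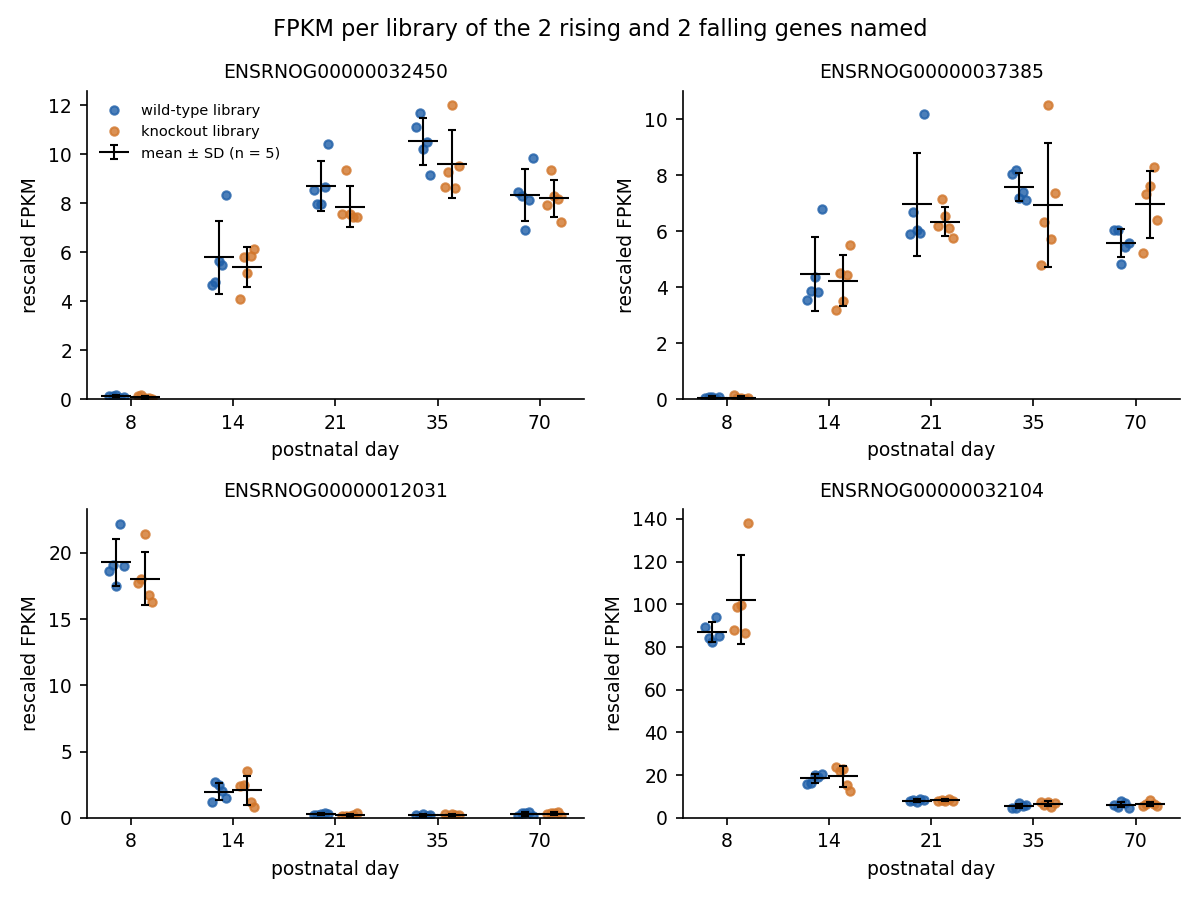
Rescaled FPKM of the 2 rising and 2 falling genes (vertical axes, each from 0) in all 50 libraries by postnatal day (horizontal axis, not to scale), wild-type in blue and knock-out in orange, with the mean and SD of each group of 5. Libraries of days 8 and 14 do not overlap in any of the 4 genes, and the genotypes lie side by side at each age.

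The very largest fitted falls were of another kind. Of the 6 genes with a log2 change below -3, all overlapped between the ages and all had a median of at least 10 FPKM at day 8. At day 14 up to 7 of the 10 libraries were listed at 0, and 4 of the 6 genes had at least 1 such library. Zeros were not confined to day 14: at day 8, 1 library was listed at 0 in one of these genes and 2 in another. Their medians went from 473 FPKM at day 8 to 5.95 at day 14, from 169 to 5.77, from 99.9 to 0, from 58.2 to 0.821, from 27.8 to 1.51 and from 22.3 to 0. At day 21 their means were 390, 47.6, 25.6, 40.1, 29.0 and 7.75 FPKM in the same order. Means are not directly comparable with medians in genes this uneven. On the log2 scale the day 21 mean was nearer to the day 8 mean than to the day 14 mean in 2 of the 6. An exact 0 in an otherwise abundant gene can be a failed estimate in FPKM tables, which was not tested. For this reason these genes are not named among the falls, by the rule that excluded overlap. In all, 43 genes had a median of at least 10 FPKM at one age and a library listed at 0 at the other. The 9 of these that passed all fell by more than 2-fold, so they are part of the 199.

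Few genes crossed from background to expression or back, and the number that left depended on the filter. A mean under 0.5 FPKM at day 8 and of at least 1 FPKM at day 14, with a passed test, was found for 41 genes, with the filter and with none. The median of their means was 0.368 FPKM at day 8 and 1.37 at day 14, and days 21, 35 and 70 had 2.07, 2.38 and 2.34. At day 70, 35 of the 41 were still at 1 FPKM or more and 2 were back under 0.5. The opposite passage was made by 15 genes with the filter, which keeps such a gene mainly where its later levels are not too low, and by 47 with none. The median level of the 47 was 1.12 FPKM at day 8 and 0.392 at day 14, and then 0.224, 0.183 and 0.171. At day 70, 39 of the 47 were under 0.5 FPKM and 0 were at 1 FPKM or more. No gene that passed the filter was under 0.1 FPKM in all 10 libraries of one age and at 1 FPKM or more in all 10 of the other.

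The change was then compared between the genotypes. Of the 3325 rising genes 3324 were higher at day 14 in each genotype, and of the 3231 falling genes 3229 were lower in each. Since both genotypes entered the fit that chose the genes, this count is a description. The median log2 change of the rising genes was 0.42 in wild-type and 0.44 in knock-out libraries, and that of the falling genes was -0.38 and -0.40. The change was the larger one in knock-out libraries in 56.8% of the rising and 56.1% of the falling genes. These shares were not computed without KO8 30-5 and WT14 21-3, nor over all genes tested. Those libraries are of opposite ages and genotypes, so the deviation they share bears on this comparison from both sides. A stronger step in knock-out libraries can therefore not be read from these shares. Fitted alone, wild-type libraries gave 2136 rising and 1919 falling genes, and knock-out libraries gave 2163 and 1906.

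The difference of the change between the genotypes was tested directly by an interaction term. With limma 0 of 14779 genes (0%) passed, 700 had an unadjusted p under 0.05 (4.74%), and the smallest adjusted p was 0.806. The design limits what this shows: the median half-width of the 95% interval of the difference was 0.38 on the log2 scale. Among the called genes the interval lay within 1 log2 unit either way in 6138 (93.6%), but among the 498 genes changed by more than 2-fold it did so in 365. For ENSRNOG00000032450 the interval of the knock-out minus wild-type change ran from -0.36 to 0.41 and for ENSRNOG00000037385 from -0.50 to 0.38. It ran from -0.62 to 0.78 for ENSRNOG00000012031 and from -0.64 to 0.29 for ENSRNOG00000032104. The count that passed was 0 as well without each of the 20 libraries in turn and when all 50 libraries gave the spread. The number with an unadjusted p under 0.05 was less stable. It ran from 433 without WT14 21-3 to 1203 without KO8 28-1. In the fit of all 50, however, 16 genes passed without the library KO8 28-1, 4 without KO8 30-5 and 25 with array weights. Such weights give a library less say the more its own values scatter about its group.

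**Figure D3:**
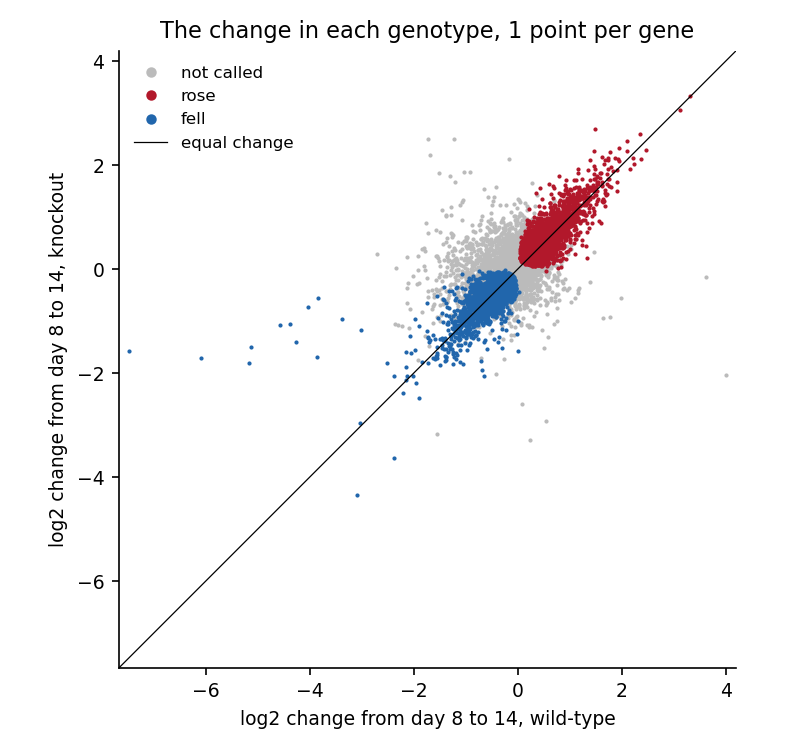
The log2 change from day 8 to day 14 in knock-out libraries (vertical axis) against that in wild-type libraries (horizontal axis), 1 point per gene tested, with rising genes in red, falling genes in blue, genes that did not pass in grey and a line of equal change. Called genes lie along the line in both directions, and the blue points far to the left of it, with a larger fall in wild-type libraries, did not pass the test of the difference.

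To follow the step to later ages, genes were called in one genotype and read in the other, so that no library served for both. The filter and the scaling factors, however, came from all 50 libraries. The libraries in which genes were read thus also bore on which genes were tested, and these genes were followed with the filter only. Genes that rose in wild-type libraries stood above their day 8 level in knock-out libraries by medians of 0.52, 0.77, 0.80 and 0.82 log2 units at days 14, 21, 35 and 70. Genes that fell in wild-type libraries stood below it in knock-out libraries, with medians of -0.47, -0.73, -0.77 and -0.76. By day 14 the rising genes had thus covered 64% and the falling genes 61.4% of the day 70 median, and by day 21 93.8% and 95.1%. Here and below, such shares are partly set by the choice of genes. A called change from day 8 to 14 leaves out genes that changed only later, so the shares do not describe all genes. The direction at day 14 was the same in 98.7% of the rising and 98% of the falling genes, where 49.9% of all genes tested were higher at day 14 in knock-out libraries.

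The reverse choice gave a similar course. Genes chosen in knock-out libraries and read in wild-type libraries stood at 0.49, 0.70, 0.71 and 0.70 for the 2163 rising ones and at -0.44, -0.63, -0.67 and -0.64 for the 1906 falling ones. The share of the day 70 median reached by day 14 was 69.6% and 68.7%, and by day 21 98.9% and 99.2%. Genes that changed by more than 2-fold in one genotype were also followed. The 263 such rising genes of wild-type libraries stood at 1.31, 1.81, 1.88 and 1.90 in knock-out libraries, and the 194 falling ones at -1.15, -1.73, -1.88 and -1.97. By day 21 these had reached 95.6% and 87.6% of their day 70 medians. The 350 rising genes of knock-out libraries stood at 1.08, 1.51, 1.61 and 1.56 in wild-type libraries and the 186 falling ones at -1.13, -1.58, -1.73 and -1.74, with 97% and 90.9% reached by day 21.

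**Figure D4:**
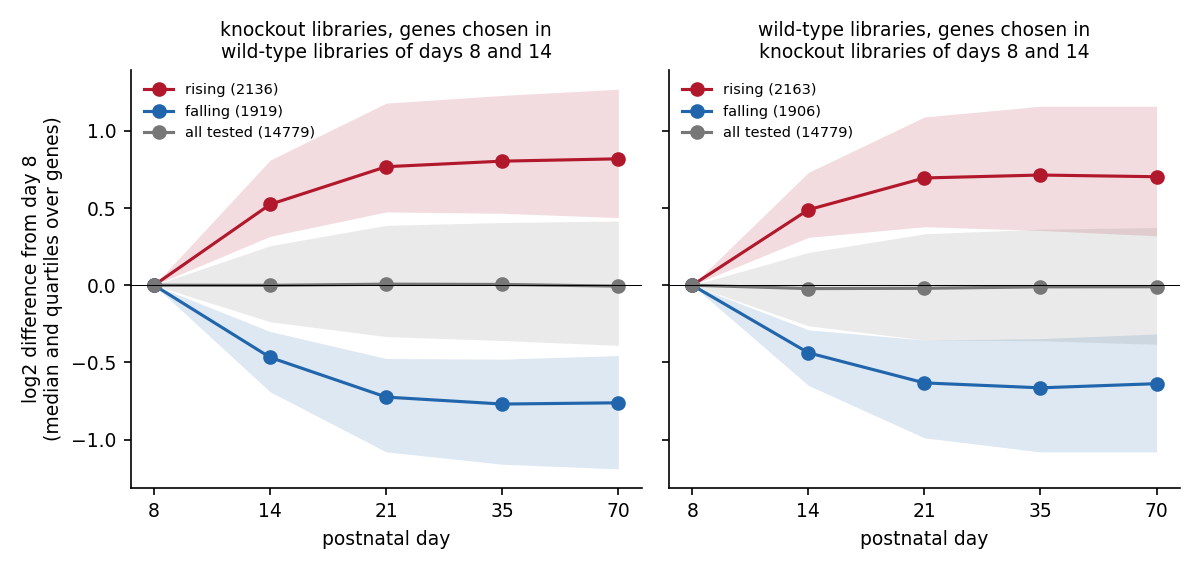
The median log2 difference from day 8 (vertical axis) by postnatal day (horizontal axis, not to scale), with a band from the lower to the upper quartile over genes, for rising genes in red, falling genes in blue and all genes tested in grey. In both panels the genes were chosen in one genotype and read in the other, and the red and blue medians leave day 8 steeply, reach nearly their final value by day 21 and stay there.

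From day 14 to day 70 the genes of the step went mainly further in their own direction or did not pass. In knock-out libraries 18.5% of all genes tested rose over this later span and 18.1% fell. Of the 2136 genes that had risen in wild-type libraries from day 8 to 14, 1062 (49.7%) rose further in knock-out libraries, 197 (9.22%) fell and 877 did not pass. Of the 1919 that had fallen, 929 (48.4%) fell further, 91 (4.74%) rose and 899 did not pass. In wild-type libraries 18.3% of all genes tested rose from day 14 to 70 and 18.3% fell. Of the 2163 genes that had risen in knock-out libraries, 891 (41.2%) rose further there and 286 (13.2%) fell, and of the 1906 that had fallen, 768 (40.3%) fell further and 119 (6.24%) rose. Without KO8 30-5 and WT14 21-3, 49.6% of the rising and 47.5% of the falling genes read in knock-out libraries went further, and 10.4% and 4.73% turned back. Of those read in wild-type libraries 35.7% and 36.3% went further, and 13.9% and 6.62% turned back. More genes were chosen without these libraries, and the shares of all genes tested were not computed for this set. The shares with and without them are thus not directly comparable.

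The genes that turned back after day 14 were few, and were picked partly by the libraries in which they were read. The 197 that rose first and fell later stood in knock-out libraries at 0.57, 0.44, 0.24 and 0.12 at days 14, 21, 35 and 70, when 80 of them were below their day 8 level. The 91 that fell first stood at -0.42, -0.30, -0.18 and -0.0025, and 43 of them ended above their day 8 level. In wild-type libraries the 286 genes that rose first stood at 0.43, 0.25, 0.079 and -0.055, and 162 of them ended below day 8. The 119 genes that fell first stood there at -0.34, -0.18, -0.058 and 0.062, and 73 of them ended above day 8.

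Each library was then placed along the step with the genes chosen in the other genotype. The position is the mean log2 level of the rising genes minus that of the falling genes, with the mean of the day 8 group set to 0 and that of the day 14 group to 100 in each genotype. Knock-out libraries of day 8 lay at -7.1, -9.1, 3.9, 3.9 and 8.4, the last being KO8 30-5. Wild-type libraries of day 8 lay at 2.4, -6.9, 20.5, -11.3 and -4.7. Library WT8 26-1 stood highest among them, at 20.5, and the others were within 12 units of 0.

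At day 14 the knock-out libraries lay at 90.2, 89.4, 90.2, 106.6 and 123.7, with 24-1 and 24-2 above the other 3. The titles of 24-1 and 24-2 share their first number. The wild-type libraries lay at 111.2, 104.8, 98.2, 102.4 and 83.5, the last being WT14 21-3. In wild-type libraries the gap between the highest of day 8, at 20.5, and the lowest of day 14, at 83.5, was wider than the range of either group. The same held in knock-out libraries, where the gap ran from 8.4 to 89.4. The SD was 7.65 and 12.5 at day 8 in knock-out and wild-type libraries, and 15.1 and 10.4 at day 14. At day 21 knock-out libraries lay between 144 and 156.2 and wild-type libraries between 128.5 and 145.4, each above every day 14 library of its own genotype. Days 35 and 70 ran from 152.7 to 169.9 and from 157.2 to 163.9 in knock-out libraries, and from 143.9 to 160.8 and from 136.1 to 152.9 in wild-type libraries. All 3 later ages overlapped in wild-type libraries, while in knock-out libraries day 35 overlapped with both others and day 70 lay just above day 21. Since the 0 and 100 of each genotype are its own group means, positions were not compared between genotypes.

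**Figure D5:**
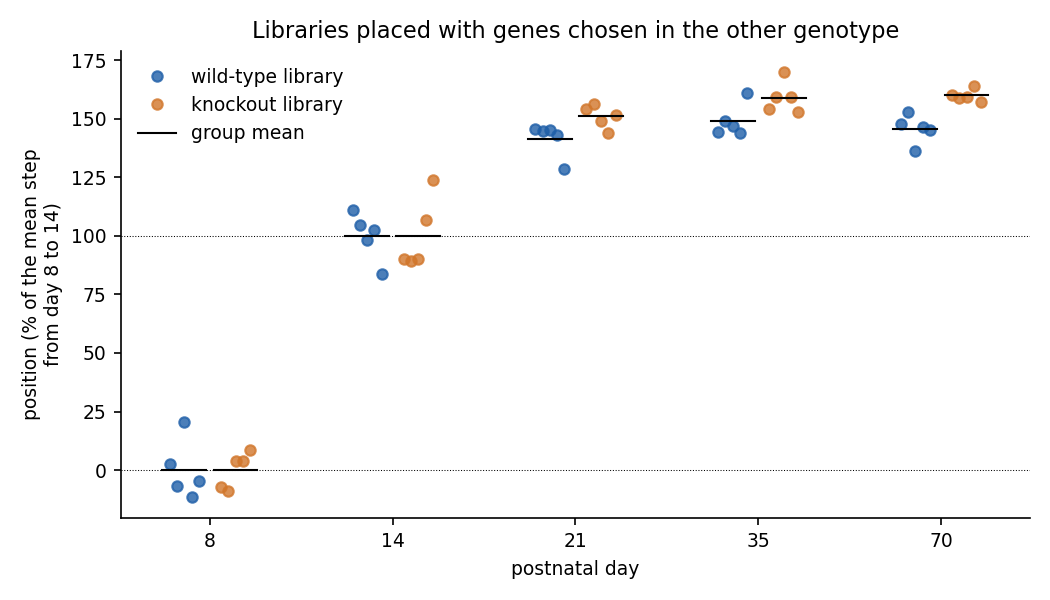
The position of each of the 50 libraries along the step (vertical axis, in percent of the mean step from day 8 to 14 of its genotype) by postnatal day (horizontal axis, not to scale), wild-type in blue and knock-out in orange, with a line at each group mean. Within each genotype days 8 and 14 do not overlap and day 21 lies above day 14. The later ages overlap within each genotype, except days 21 and 70 in knock-out libraries.

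The spread between libraries differed among the 4 groups. The median SD over genes was 0.23 log2 units in knock-out and 0.15 in wild-type libraries at day 8, and 0.16 and 0.22 at day 14. The wider groups were those that held KO8 30-5 and WT14 21-3. Of the 8223 genes that did not pass, 6474 (78.7%) had a 95% interval of the change from day 8 to 14 within 1.5-fold either way. For 821 genes the interval reached past 2-fold, so that the data leave a change of that size possible in them. A further 14737 rows were under the filter and not tested, of which 4435 were at 0 in all 50 libraries.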

How the data were processed

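Per the labels' protocols, total RNA of the prefrontal cortex was depleted of ribosomal RNA, fragmented, amplified by 10 PCR cycles and sequenced as single-end reads of 50 bp, with some 29000000 reads a sample. The labels' protocols name gsnap with the rn4 assembly, and the submitters' processing notes name BWA 0.6.1, bedtools and Cufflinks with rn4. The sources used here do not give the gene annotation, and no strand protocol is stated, so genes that overlap on opposite strands cannot be told apart. The authors deposited FPKM values, one table per genotype, with 29516 Ensembl identifiers. Per the labels, the wild-type samples were also deposited with another series. All columns matched a sample, and 0 pairs of libraries within a group were identical.

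Libraries were rescaled by median ratios to a geometric mean library made from all 50 (factors 0.887 to 1.2 in the 20). Rows whose mean over all 50 reached 0.5 FPKM were kept, and log2(rescaled FPKM + 0.5) was modelled in limma (version 3.58.1, under R 4.3.3, trend and robust variance, 17 residual degrees of freedom, genotype as a block). On this scale the change of a low gene is understated. A second fit with 4 group means tested the difference between genotypes, and within-genotype fits chose the genes followed to later ages. The tests were checked on simulated data. Relative depth was read from 4202 low rows with Python 3.11.15, taking ratios within 0.02 log2 units of small whole numbers as whole. In the median pair of libraries 97.8% were.

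The genes to be named were those with the largest fitted changes in each direction among called genes that averaged 1 FPKM or more, with no overlap between the ages and the same direction in both genotypes, 2 per direction where no symbols could be matched. The reference table of GRCr8 held 0 rat Ensembl identifiers, so the planned gene lists, marker genes and promoter motifs were not analysed here. The libraries compared and all lists were chosen with earlier results of these data known. The alternatives were the added constant, the filter, the scaling, the libraries fitted, the first title number (3 per group, not explained by the labels), library weights, the variance model and leaving out each library. Leaving out the libraries that stood apart, the total FPKM covariate, the unfiltered counts of low genes and the further fits of all 50 libraries were chosen after seeing the data.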

Additional observations from a re-analysis of the deposited data

Results flagged for a closer look

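In 40 checks, each of 1 measure in 1 of the 4 groups of 5 libraries, 6 found a library far from the rest. Chance gives such a result in about 1 in 20 groups, and checks of the same libraries are not independent. KO8 30-5 held 138 FPKM of ENSRNOG00000032104 against 99.9 in the nearest library of its group, and its mean correlation with the group was 0.928, below the next lowest of 0.958. WT14 21-3 held 8.33 FPKM of ENSRNOG00000032450 against 5.66 in the nearest library, and 6.8 FPKM of ENSRNOG00000037385 against 4.37. Library KO14 22-1 had 549 genes more than 2-fold above the median of its group, where the next library had 172. Library WT8 25-3 had 595 such genes, where the next had 147.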

How the results depend on the processing

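Across 37 alternatives the number of rising genes ran from 2136 to 3925 and that of falling genes from 1906 to 3861, and no gene called in the 20 libraries was called in the opposite direction. Fewer libraries gave the lowest counts: 2136 rising and 1919 falling in wild-type libraries alone, 2163 and 1906 in knock-out libraries alone. The number falling by more than 2-fold was 301 with 0.1 FPKM added, 131 with 1 FPKM added and 123 with a filter at a mean of 2 FPKM. The number rising by more than 2-fold ran from 228 with 1 FPKM added to 424 with 0.1 FPKM added. Leaving out 1 library at a time gave 3117 to 3544 rising and 2999 to 3461 falling genes, 280 to 319 and 171 to 211 by more than 2-fold, and 0 whose change differed between genotypes. In the fit of all 50 libraries that last count was 16 without KO8 28-1, 4 without KO8 30-5, 0 without each of the other 3 libraries of that group and 25 with array weights; the cause was not tested. Averaging libraries by first title number left 2678 rising and 2486 falling genes. With no filter, 47 genes in place of 15 went from at least 1 FPKM to under 0.5, and 193 rose and 278 fell from 0.5 to 1 FPKM in place of 204 and 175. Falling genes outnumbered rising ones on the values as deposited (2865 rising, 3556 falling) and with no filter (3493 and 3579). All 4 named genes passed in all 37 alternatives, with limma adjusted p up to 5.52e-05. With 0.1 and 1 FPKM added, the log2 change was 4.82 and 2.56 for ENSRNOG00000032450, 4.79 and 2.31 for ENSRNOG00000037385, -3.25 and -2.75 for ENSRNOG00000012031 and -2.33 and -2.27 for ENSRNOG00000032104. The absolute depth of each library is unknown, which limits genes under 1 FPKM most. No paired analysis was possible because the groups share no replicate numbers. No first title number occurs at both ages, so a difference between sets of these numbers cannot be told apart from age.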
